A study of Mus musculus with 14 samples.

Results

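The promoters of 10 genes of fibroblast growth factor (Fgf) signalling were followed by promoter-capture Hi-C (PCHi-C) in mouse cranial neural crest cells (CNCCs). They are the ligands Fgf3, Fgf8, Fgf10 and Fgf18, the receptors Fgfr1, Fgfr2 and Fgfr3, and the feedback genes Spry1, Spry2 and Dusp6. A bait is a captured HindIII fragment, and a bait was taken as a member if it held an annotated start site of one of the genes (GENCODE vM21, mm10). This gave 12 baits out of 22171 in the series, and all 12 passed the filter of the tests, a listed same-chromosome contact in at least 2 libraries.

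The data were 14 libraries, with 2 for each of 7 conditions. CNCCs of the frontonasal process (FNP), the maxillary process (Mx), the mandibular process (Md) and the second pharyngeal arch (PA2) were taken at E10.5, and PA2-derived CNCCs of the pinna (the outer ear) at E12.5 and E14.5. All of these wild-type cells were RFP-positive cells sorted from Wnt1::Cre;ROSARFP embryos, in which the Wnt1 promoter drives Cre in neural crest progenitors before they migrate. Mice were kept on a mixed C57Bl/6J;CD1 background. The seventh condition was E10.5 PA2 of Hoxa2EGFP/EGFP embryos, which lack Hoxa2 and whose GFP-positive cells were sorted, so that genotype and sorting marker cannot be told apart. Stage and location cannot be told apart in the pinna either, and E14.5 tissue was dissociated with papain where the earlier stages were dissociated with trypsin. Promoter contacts give no expression values, so the labelled cell type was not checked here.

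Each library is a list of fragment pairs with a CHiCAGO score, which weighs how far a pair's read count lies above the library's own background for that distance. The lowest score in every list was 5, and a pair missing from a list was set to 0, which means under the floor and not absent. The lists held 113670 to 186248 same-chromosome pairs. Between-chromosome pairs made up 46.5% of the list of Md replicate 1 and 62.7% of that of E12.5 pinna replicate 2, against 2.51% to 5.39% in the others, and both of these lists are marked as merged, and only same-chromosome pairs were used below. The read depth of the libraries is unknown from these lists.

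Fgf ligands are secreted proteins that bind receptor tyrosine kinases of the Fgfr family, and the bound receptor signals through the Ras and MAP kinase cascade. Sprouty proteins (Spry1, Spry2) dampen this cascade, and Dusp6 is a phosphatase that removes phosphate from ERK, and all of them are induced by the signal that they restrain. In the developing face Fgf8 and Fgf3 are known as ligands of the epithelium, received by the neural crest mesenchyme beneath, whereas Fgf10 and Fgf18 are known as ligands of mesenchyme. The neural crest cells studied here belong to the mesenchymal side, so the contacts of Fgf3 and Fgf8 described below are those of ligand genes in cells that are mainly recipients of the ligand.

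Sequences of some regions named below are given first, as a description. The distal fragments of Fgf8, Fgf10 and Fgfr1 among them were each listed on 1 side only of the test that picked them. The Fgf10 promoter (RefSeq, GRCm38, chr13:118714449-118714748, plus strand) lies in the Fgf10 coding-start bait, and the capitals mark the bases from the start site on. The next 3 are the first 240 bases of the HindIII fragments with the lowest adjusted p between pinna and E10.5 for Fgf8, Fgf10 and Fgfr1, at chr19:45144394-45144633, chr13:118397424-118397663 and chr8:25394210-25394449 on the plus strand, and the capitals mark what the HindIII cut leaves of its site. The last is a window of 60 bases on the minus strand at chr10:99577421-99577480, in the fragment with the highest mean score for Dusp6, and the capitals mark a match to CCNNNAGGGGGC, letters from the core of the CTCF motif.
Fgf10 promoter: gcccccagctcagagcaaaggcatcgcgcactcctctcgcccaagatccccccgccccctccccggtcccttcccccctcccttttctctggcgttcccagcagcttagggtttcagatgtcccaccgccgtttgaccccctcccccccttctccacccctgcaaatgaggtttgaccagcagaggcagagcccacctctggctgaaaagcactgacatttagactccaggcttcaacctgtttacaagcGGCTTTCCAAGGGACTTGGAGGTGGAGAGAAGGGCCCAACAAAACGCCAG
Fgf8 distal: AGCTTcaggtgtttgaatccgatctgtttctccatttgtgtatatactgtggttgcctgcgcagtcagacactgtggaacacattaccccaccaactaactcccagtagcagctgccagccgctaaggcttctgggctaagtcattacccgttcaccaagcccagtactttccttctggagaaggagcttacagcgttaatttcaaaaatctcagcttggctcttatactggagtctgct
Fgf10 distal: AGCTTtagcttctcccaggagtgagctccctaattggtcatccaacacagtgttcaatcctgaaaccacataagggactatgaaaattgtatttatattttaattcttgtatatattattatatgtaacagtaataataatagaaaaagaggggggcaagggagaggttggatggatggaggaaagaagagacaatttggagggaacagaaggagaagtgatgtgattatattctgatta
Fgfr1 distal: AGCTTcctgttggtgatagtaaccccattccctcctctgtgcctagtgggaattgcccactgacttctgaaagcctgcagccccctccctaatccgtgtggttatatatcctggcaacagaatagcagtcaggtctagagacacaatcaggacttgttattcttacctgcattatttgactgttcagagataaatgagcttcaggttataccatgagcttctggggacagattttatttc
Dusp6 distal: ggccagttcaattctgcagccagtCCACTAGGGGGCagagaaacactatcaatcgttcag
The Fgf10 promoter window was 60.7% G and C and held 10 CpG dinucleotides. The distal stretches of Fgf8, Fgf10 and Fgfr1 were 47.9%, 36.2% and 45.4% G and C and held 5, 0 and 1 CpG. RefSeq promoter windows were at hand for 8 of the 10 genes, without Fgf8 and Fgfr1.

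The baits differed in how many contacts they had. The median bait of the series had 4.43 listed fragments per library, and 10 of the 12 member baits had more. The upstream Fgfr1 bait led with a mean of 35.5 fragments per library, above 97.6% of all baits. Fgf8 followed with 29.7, Fgf18 with 26.1, the main Fgfr1 bait with 24.2 and Spry1 with 23.4. Fgf10 had 13.5 at its coding start and 5.21 at its upstream start, Dusp6 had 12.2 and Spry2 7.29. At the other end, Fgf3 had 1.07 and Fgfr3 0.500, at percentiles 8.72 and 1.73 of all baits, on baits 11310 and 12908 bases long. The baits of Fgf18 and Dusp6, which had more contacts, were about as long, at 11128 and 12020 bases. The Ctbp2 bait, explained below, had 22.1. The ligands of the epithelium stood at opposite ends, Fgf8 with 416 listings over the 14 libraries and Fgf3 with 15.

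Direction along the chromosome was as uneven. Of the listings of Fgf8, 96.9% lay downstream of its start, as did 99.2% of those of Fgf18, 97.6% of those of Spry1, 99.0% of those of Spry2 and 97.1% of those of Dusp6. Fgfr1 contacts lay upstream, with 4.23% and 3.54% downstream for its upstream and main start. The median distance was 188 kb for the upstream Fgfr1 bait, 308 kb for Dusp6, 352 kb for Spry1, 433 kb for Fgf18, 496 kb for Spry2, 552 kb for Fgf8 and 621 kb for the Fgf10 coding start.

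Fgf3, a ligand best known for its part in inner ear and tooth development, had 5 different contacted fragments in all. The highest mean score was with a bait 256 kb upstream that holds the start of Fadd, an adaptor of death receptors (chr7:144581409-144583389). That contact was listed in 7 of 14 libraries, at 5.80 and 5.08 in Mx, 5.51 in Md replicate 1, 9.31 in PA2 replicate 1, 7.92 and 7.49 in the knockout and 5.69 in E12.5 pinna replicate 2. It was not listed in FNP or at E14.5. The next were 2 fragments 252 and 244 kb upstream that overlap exonic sequence of Ano1, listed in 4 and 2 libraries.

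Fgf8, the ligand that keeps pharyngeal arch mesenchyme alive and patterns it, contacted the same far region in every library. Its bait (chr19:45740317-45743601) holds the start sites of all 6 annotated transcripts. Of 74 fragments, 10 were listed in all 14 libraries. The 3 with the highest mean scores lay 521, 503 and 504 kb downstream, beside Lbx1, a homeobox gene of muscle precursors and spinal interneurons, and none of them overlaps an annotated gene. The fragment at chr19:45219055-45223079 scored 26.7 and 20.3 in FNP, 21.2 and 17.1 in Mx, 15.8 and 22.8 in Md, 35.0 and 26.2 in PA2, 11.1 and 13.4 in the knockout, 28.6 and 15.6 in E12.5 pinna and 21.1 and 22.1 in E14.5 pinna. The 2 knockout libraries were the lowest of the 14. Further fragments held start sites of Lbx1 (14 libraries), of Tlx1, a homeobox gene needed for the spleen (13 libraries), of Kazald1 (10 libraries for one start fragment and 7 for another), of the Fbxw4 and Poll region (7 libraries), of Armh3 (6 libraries), and of Pax2 and Nkx2-3, both homeobox or paired-box regulators of development (4 libraries each).

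Fgf10, a mesenchymal ligand needed for limbs, lungs and glands, has 2 baits. The coding-start bait (chr13:118711686-118717093) is shared with the transcript Gm16263, and the upstream bait holds the starts of the other 2 of its 3 annotated transcripts. At the coding start the highest mean score was with a fragment 310 kb upstream (chr13:118403016-118405199) in intergenic sequence. It scored 5.24 and 0 in FNP, 7.19 and 5.44 in Mx, 5.07 and 7.58 in Md, 0 and 0 in PA2, 5.14 and 0 in the knockout, 9.20 and 9.98 in E12.5 pinna and 12.6 and 19.6 in E14.5 pinna. The 4 pinna libraries were above all E10.5 libraries. The other 2 lay 651 and 610 kb downstream, the first overlapping exonic sequence of Nnt, a mitochondrial transhydrogenase, and the second 10.2 kb from that gene. The upstream bait had the same 2 downstream fragments among its own leading 3, the last lying 671 kb downstream over exons of Nnt and listed in 4 libraries, and 27 fragments were listed with both baits, 62.8% of those of the upstream bait and 36.5% of those of the coding-start bait. None of the Fgf10 contacts was listed in 12 or more libraries.

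Fgf18, a ligand of skeletal growth, had 7 fragments in all 14 libraries. The leading 3 lay 428, 416 and 433 kb downstream within Fbxw11, which codes for a ubiquitin ligase subunit, the second in an intron and the others over exons. The first (chr11:32713427-32720819) scored from 12.2 to 23.0. It stood at 20.9 and 19.0 in FNP, 17.5 and 19.4 in Mx, 23.0 and 22.6 in Md, 19.7 and 17.4 in PA2, 12.2 and 14.6 in the knockout, 14.2 and 17.2 in E12.5 pinna and 17.2 and 13.0 in E14.5 pinna. The knockout and pinna libraries overlapped each other, and all 6 were below the 8 wild-type E10.5 libraries.

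Of the receptors, Fgfr1, the main receptor of neural crest mesenchyme, had 17 fragments listed with its upstream-start bait (chr8:25509742-25517012) in all 14 libraries, and 1 with its main-start bait (chr8:25517013-25521105). The same 3 fragments led for both, 241, 236 and 173 kb upstream of the first bait, toward Tacc1 and outside annotated genes. The first (chr8:25270819-25273267) scored 19.3 and 26.0 at E14.5 with the upstream bait and 25.9 and 26.1 with the main bait, against 11.4 to 17.0 and 9.44 to 19.0 in the wild-type E10.5 libraries. At E12.5 it scored 22.9 and 16.7 with the upstream bait and 11.2 and 17.0 with the main bait, within or above the E10.5 range. Of the other 2, both were listed with the main bait in 12 libraries, and in neither knockout library. The baits touch each other and shared 51 fragments, 65.4% of those of the upstream start and 76.1% of those of the main start.

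Fgfr2 had no listed contact at its usual promoter. The RefSeq start site (chr7, 130266808) lies in a HindIII fragment of 2340 bases that appears in no list. Whether that fragment was captured cannot be told from the lists. The rule finds only the start of 1 of 27 annotated transcripts, 2.86 Mb away, in the bait of Ctbp2, a transcriptional corepressor (chr7:133118508-133126117). Contacts of that bait are given as those of the Ctbp2 bait. Its leading 3 fragments lay 512, 515 and 518 kb away at or beside Edrf1, and the one with the Edrf1 start was listed in 11 libraries. Fgfr3, known as a brake on bone growth, had 7 listings, each with a different fragment in 1 library and each more than 2 Mb away, so none recurred. The highest scores were 7.76, 7.34 and 7.01, all in E12.5 pinna replicate 2, with a fragment near Ywhag, one in an intron of Ankrd13a and one in intergenic sequence.

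The feedback genes had recurrent contacts, and none of their differences between conditions passed in the main tests given below. For Spry1 the leading fragments lay 256, 281 and 316 kb downstream, listed in 14, 13 and 13 libraries, the last 2 in introns of the lincRNA Gm20755. The first (chr3:37894321-37897175) scored 5.82 to 12.4, with both ends of that range in pinna libraries. Spry2 had 1 contact in all 14 libraries, 397 kb downstream with the bait of the noncoding 4930449E01Rik (chr14:105496101-105501962), at 10.4 to 26.8. Its contact with the Ndfip2 start, 640 kb downstream, was listed in 8 of 10 E10.5 libraries, at 7.67 and 11.7 in FNP, 6.12 and 0 in Mx, 0 and 6.06 in Md, 8.19 and 11.8 in PA2 and 16.6 and 8.40 in the knockout, and in none of the 4 pinna libraries. Ndfip2 codes for an adaptor of Nedd4 ubiquitin ligases. The third, 214 kb downstream at the start of the lincRNA Gm10076 (chr14:105679590-105683178), scored 8.28 and 5.54 in E12.5 pinna and 8.34 and 9.16 in E14.5 pinna, and was listed in 3 of 10 E10.5 libraries, at 5.05 and 5.03 in Mx and 5.90 in knockout replicate 1. Neither this pair nor that of Ndfip2 passed the test between pinna and wild-type E10.5 given below.

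For Dusp6 the leading fragments lay 313, 308 and 304 kb downstream, where no gene is annotated. The first (chr10:99575721-99579116), which holds the CTCF-core letters shown above, was listed in all 14 libraries at 13.2 to 19.0, save 6.54 in E14.5 pinna replicate 1. The letters were searched on both strands in the 31 different leading fragments of the 12 baits, and 4 held a match. Fragments of similar length held one in 3.03% on average, and 0.0250% of 60-base windows of the genome did. The other matches were in a Fgf10 fragment within Nnt, in the Fgfr1 fragment 173 kb upstream and in 1 of the fragments listed once with Fgfr3. A match is a match of letters and not a bound site.

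Contact strength of a bait was then compared between conditions as its summed score, scaled to equal library totals. Values below are these scaled sums, and differences are on the scale log2(sum + 5), from limma with the Benjamini-Hochberg adjustment over 22137 baits. Over the 7 conditions 3 of the 12 member baits changed (adjusted p below 0.05), where 5.46% of all baits did. These were the Fgf10 coding start (F = 9.15, adjusted p = 0.00406), Fgf8 (F = 6.65, adjusted p = 0.0173) and the main Fgfr1 start (F = 6.62, adjusted p = 0.0178), and the upstream Fgfr1 start had an adjusted p of 0.0509. The main Fgfr1 start had scaled sums of 107 and 309 in FNP, 173 and 108 in Mx, 188 and 154 in Md and 179 and 159 in PA2. They were 44.8 and 102 in the knockout, 276 and 241 in E12.5 pinna and 376 and 363 in E14.5 pinna. None of its single contrasts passed. The baits of Fgf3, Fgf18, Fgfr3, Ctbp2, Spry1, Spry2 and Dusp6 and the upstream Fgf10 bait did not pass. The calls rest on few libraries. That of Fgfr1 was lost without knockout replicate 1 (adjusted p = 0.125) or without either E14.5 replicate (0.0646 and 0.0615), and that of Fgf8 without PA2 replicate 1 (0.0667), PA2 replicate 2 (0.0548) or E14.5 replicate 2 (0.114), and that of Fgf10 without E14.5 replicate 2 (0.0509).

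**Figure D1:**
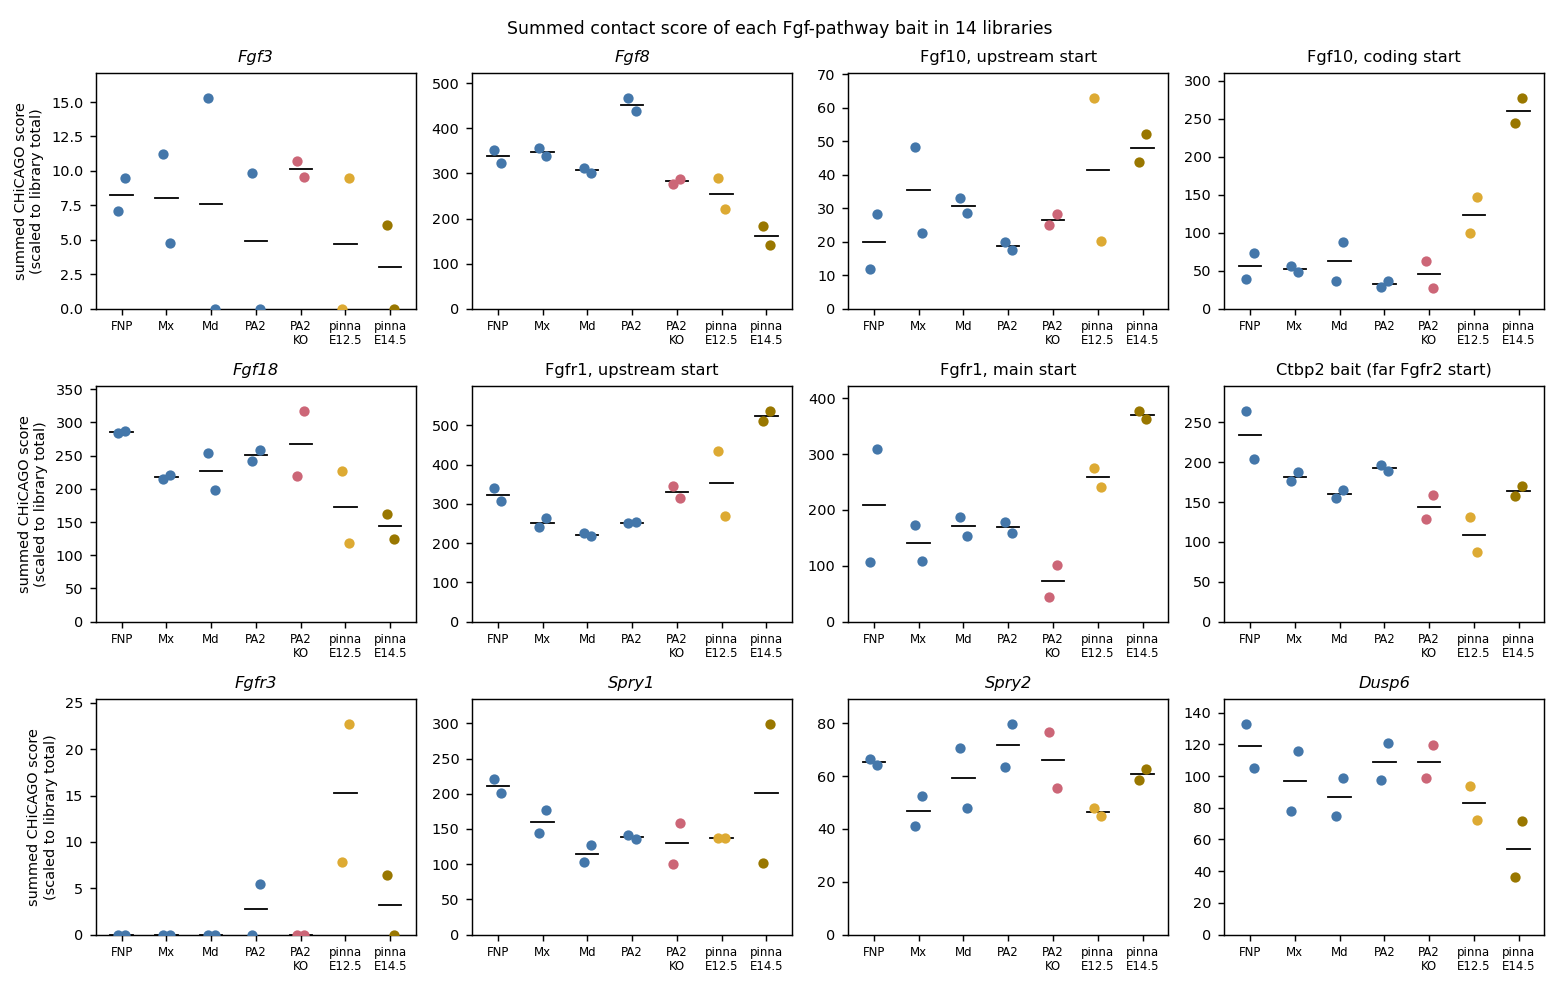
Summed CHiCAGO score of the same-chromosome contacts of each member bait, scaled to equal library totals, for the 14 libraries. Points are libraries (blue, wild-type E10.5; red, knockout; yellow and brown, pinna at E12.5 and E14.5) and black lines are means of 2, with axes that start at 0 and differ between panels; Fgf8 was lowest at E14.5 (182 and 142) and the Fgf10 coding start highest there (245 and 277).

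The question of the pinna libraries is how contacts of PA2 cells change as the ear forms. Of the 12 member baits, 2 differed between pinna and wild-type PA2, where 2.64% of all baits did, 1 higher against 1.18% and 1 lower against 1.45%. Fgf10 rose at its coding start. Its scaled sum was 28.6 and 36.9 in PA2, 100 and 147 in E12.5 pinna and 245 and 277 in E14.5 pinna, and all 4 pinna libraries were above the 10 libraries of E10.5, which ran from 27.8 to 88.5. The difference was 2.29 (SE 0.39, 95% interval 1.47 to 3.11, limma adjusted p = 0.00203), and it stood at 2.13 (adjusted p = 0.0652) without PA2 replicate 1. The upstream Fgf10 bait had 19.9 and 17.6 in PA2 and 62.8, 20.3, 43.9 and 52.3 in the pinna, a difference of 0.98 that did not pass (interval -0.08 to 2.04).

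Fgf8 fell. Its scaled sum was 466 and 437 in PA2, the highest of the 14 libraries, 289 and 221 in E12.5 pinna and 182 and 142 in E14.5 pinna, with no overlap. The difference was -1.14 (SE 0.22, interval -1.59 to -0.69, limma adjusted p = 0.00494). The call needs both PA2 libraries (adjusted p = 0.102 and 0.0727 without replicate 1 or 2), and as a number of fragments in place of a summed score the difference was -0.76 (adjusted p = 0.0706). With pairs between chromosomes included, the adjusted p was 0.0655. Fgf8 thus lost contact strength where the coding start of Fgf10 gained it, the difference between the baits not being tested.

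Of the receptors and feedback genes none passed in that comparison. The difference was 0.74 for the upstream Fgfr1 start (interval 0.27 to 1.20, adjusted p = 0.0879) and 0.86 for its main start (0.13 to 1.58, 0.227). Its scaled sum at the upstream start was 251 and 254 in PA2, 434 and 269 in E12.5 pinna and 511 and 535 in E14.5 pinna, and no pinna library was below the PA2 pair. The upstream start did pass in 4 other settings, without E12.5 replicate 2, the library with the most between-chromosome pairs (adjusted p = 0.0198), without both lists marked as merged (0.0264), with no scaling (0.0358) and with scores of 10 or more only (difference 1.96, adjusted p = 0.0267). Spry1 had 0.15 (interval -0.53 to 0.83), Spry2 -0.39 (-1.09 to 0.31) and Dusp6 -0.70 (-1.36 to -0.03, adjusted p = 0.298). The E14.5 replicates of Spry1 were far apart, with scaled sums of 102 in replicate 1 and 299 in replicate 2, the highest of the 14 libraries. Fgf18 had -0.69 (-1.25 to -0.14, adjusted p = 0.195), and 0.0383 without E12.5 replicate 1. Fgf3 had -0.12 (-1.60 to 1.37), an interval wide enough to hold the fall of Fgf8.

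**Figure D2:**
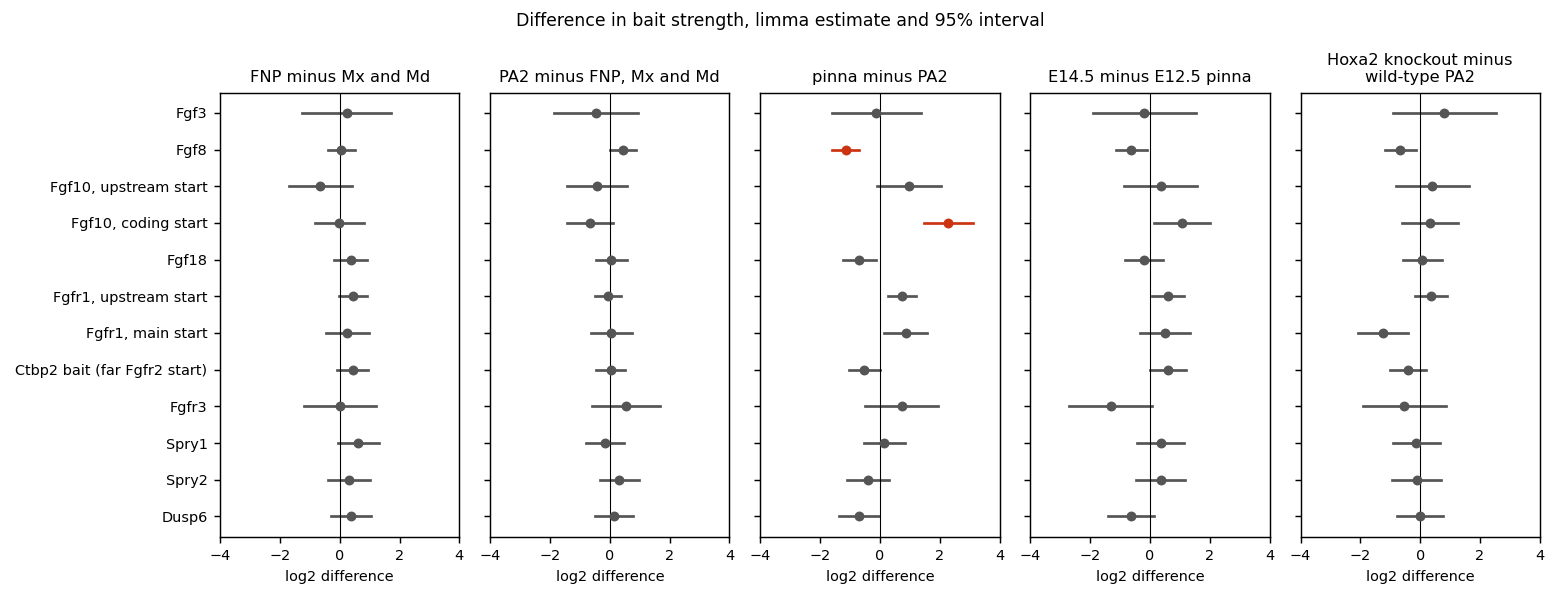
Differences in bait strength for the 12 member baits in 5 comparisons, on the scale log2(scaled summed score + 5). Points are limma estimates and bars are 95% intervals, and red marks the 2 that passed an adjusted p of 0.05, Fgf8 (-1.14) and the Fgf10 coding start (2.29), both in pinna against PA2.

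Among the E10.5 prominences no difference passed. FNP against Mx and Md gave 0 of 12 member baits and 0% of all baits (limma, 0 and 1105 baits at an unadjusted p under 0.05), and PA2 against FNP, Mx and Md gave 0 of 12 and 0% of all (1 and 1375 baits). The 1 was Fgf8, 0.44 higher in PA2 (interval 0.02 to 0.87, adjusted p = 0.793). Between the pinna stages 0 of 12 passed where 0.163% of all baits did, 0.0136% higher and 0.149% lower. E14.5 minus E12.5 was 1.07 (0.12 to 2.01) for the Fgf10 coding start, 0.60 (0.07 to 1.14) for the upstream Fgfr1 start and -0.63 (-1.15 to -0.11) for Fgf8, at unadjusted p of 0.0290, 0.0292 and 0.0192. All baits had a median of -0.10 there.

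In the Hoxa2 knockout 0 of 12 member baits passed against wild-type PA2, where 0.678% of all baits did, 0.0452% higher and 0.632% lower, 2 members being under an unadjusted p of 0.05. The main Fgfr1 start had scaled sums of 44.8 and 102 in the knockout against 179 and 159, a difference of -1.25 (interval -2.09 to -0.41, adjusted p = 0.188). The upstream start, next to it, had 344 and 315 against 251 and 254, a difference of 0.38 (-0.16 to 0.91). Fgf8 had 278 and 288 against 466 and 437, a difference of -0.67 (-1.19 to -0.15, adjusted p = 0.265), and with no scaling between libraries -0.996 (adjusted p = 0.0394). Without scaling the median of all baits was itself -0.20 in this comparison, against 0.05 with it. The knockout lists were the shortest of the series, at 113670 and 120854 same-chromosome pairs. Spry1 and Spry2 had differences of -0.13 and -0.12 with intervals of -0.92 to 0.65 and -0.93 to 0.69, and the interval for Dusp6 was -0.77 to 0.77.

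**Figure D3:**
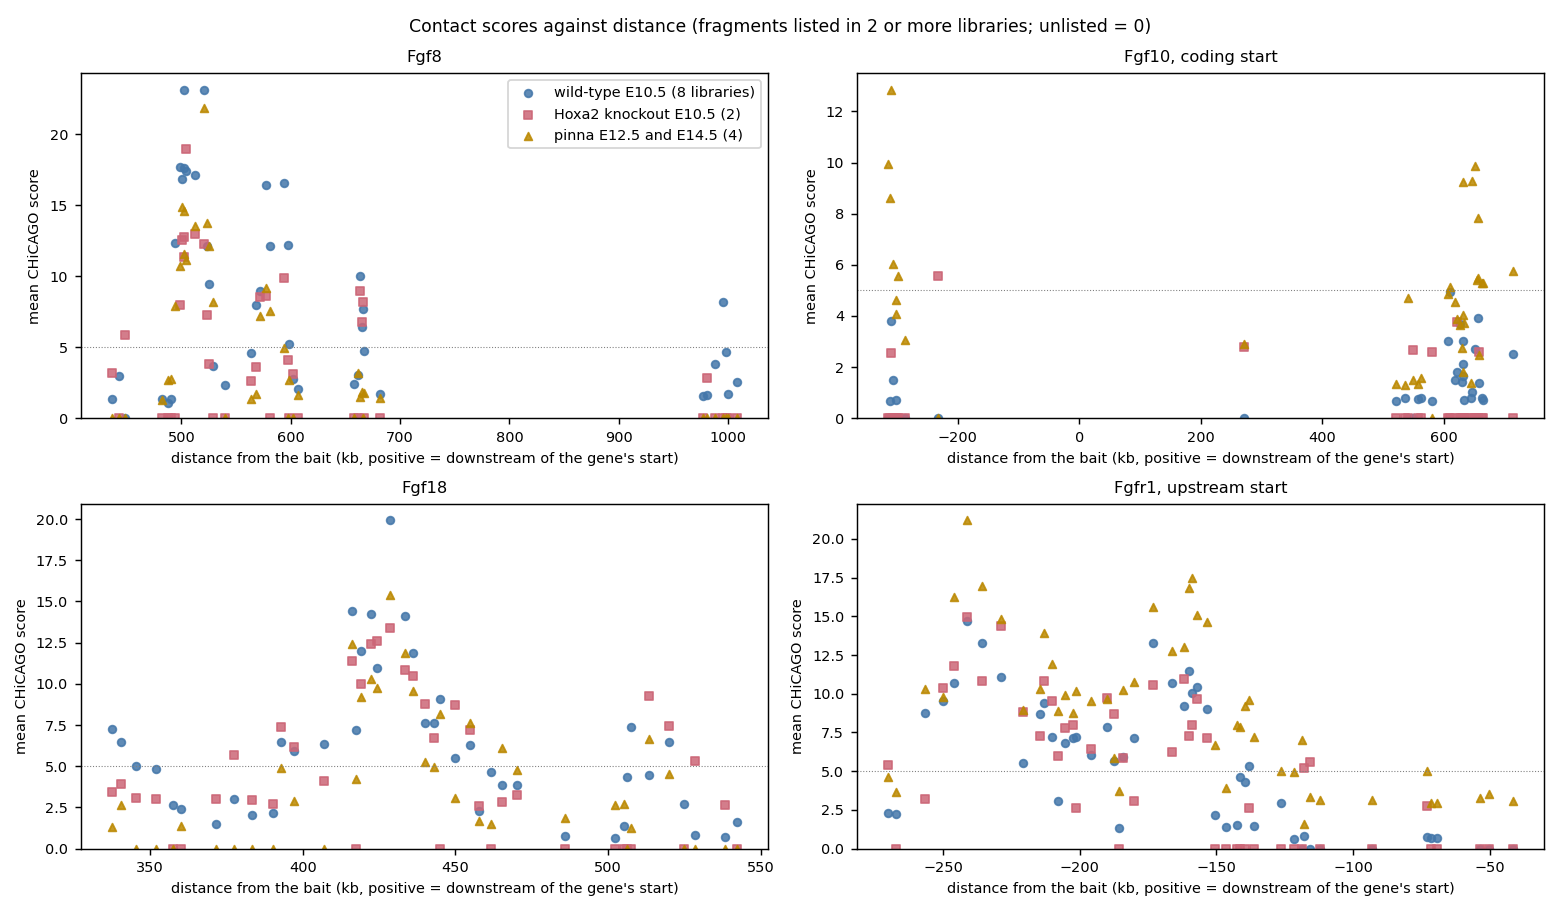
Mean CHiCAGO score of fragments contacted by 4 member baits against their distance from the bait in kb, positive downstream of the gene's start. Each symbol is a fragment listed in at least 2 libraries within the range drawn. Scores were averaged over the wild-type E10.5 (8 libraries), knockout (2) or pinna (4) libraries, with unlisted scores as 0. The dotted line marks the floor of 5. Means were 12.2 at wild-type E10.5 and 0 in the pinna for the Fgf8 fragment 597 kb away. For the Fgf10 fragment 314 kb upstream they were 0 and 9.94. Both fragments entered the pair test through 1 side only, and 0 means under the floor and not absent.

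Single contacts were compared between the 4 pinna and the 8 wild-type E10.5 libraries, on asinh of the score with limma over 281531 pairs. Of 374 member pairs 11 passed, where 0.967% of all pairs did, 3 higher and 8 lower against 0.399% and 0.567% of all pairs. The 11 were 7 of Fgf8, 2 of the Fgf10 coding start, 1 of the upstream Fgfr1 start and 1 of the Ctbp2 bait. A pair entered the test if it was listed in at least 2 of the 12 libraries. Of the 11, 6 were listed on 1 side only, 3 in the pinna and 3 at E10.5, so that they met this filter only through the side where they are high, and their scores are given below as a description with the fitted values beside them. The other 5 were listed on both sides.

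All 7 Fgf8 contacts that passed were lower in the pinna, and 5 of them sit at or near Tlx1 (3) and Kazald1 (2). The fragment 597 kb away and 5.68 kb from Tlx1 (chr19:45144394-45145002), whose first bases are shown above, scored 10.2 to 14.3 in the 8 wild-type E10.5 libraries with a median of 11.8. It was not listed in any pinna library, and scored 8.24 and 0 in the knockout. The asinh difference was -3.19 (SE 0.42, limma adjusted p = 0.000479). Its neighbour with the Tlx1 start (chr19:45145003-45151723) scored 12.6 to 21.4 with a median of 16.1, then 6.64 and 8.04 at E12.5, 5.10 and 0 at E14.5, and 10.7 and 9.08 in the knockout (adjusted p = 0.0227). This call was lost without Mx replicate 1 (0.0569), Md replicate 1 (0.0505), PA2 replicate 1 (0.0532) or E14.5 replicate 1 (0.0551) and with replicates averaged (0.114). The fragment 597 kb away passed in all 21 alternative settings. It entered the test through E10.5 alone, so this count adds no support to its call.

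At Kazald1 the fragment with a start site, 666 kb away, scored 5.84 to 11.7 in wild-type E10.5 libraries, 7.52 and 8.92 in the knockout and 0 in all 4 pinna libraries (adjusted p = 0.0123). The fragment 664 kb away was at 5.27 to 12.8 against 0, 6.05, 0 and 0 (adjusted p = 0.0196), and did not pass with scores of 10 or more only (0.191) or with equal numbers of top pairs per library (0.153). The knockout libraries were within the wild-type range for both. A fragment 996 kb away and 7.56 kb from Pax2 (chr19:44744083-44748488) scored 6.10 to 11.4 in all 8 wild-type E10.5 libraries, and was listed in no pinna and no knockout library (adjusted p = 0.00898). This fragment and the one 666 kb away entered the test through E10.5 alone, so their scores are a description.

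The other 2 contacts of Fgf8 were listed in all 4 pinna libraries, at lower scores. The fragment 577 kb away scored 12.4 to 19.8 at wild-type E10.5 and 7.98 to 11.2 in the pinna, and 8.72 and 8.52 in the knockout (asinh difference -0.58, adjusted p = 0.0259). It did not pass without FNP replicate 1 (0.0590), Mx replicate 1 (0.0512) or Mx replicate 2 (0.0536), nor with equal top pairs (0.0504) or all listed pairs (0.0800). The fragment 503 kb away, beside Lbx1, scored 17.8 to 25.5 against 20.8, 16.8, 12.6 and 8.41, so that 1 pinna library overlapped the E10.5 range (asinh difference -0.51, adjusted p = 0.0278). The latter passed in 8 of 21 alternative settings, and not without either library of FNP, Mx, Md or E14.5 pinna or without PA2 replicate 2 (adjusted p from 0.0514 to 0.133). Summed over the 7 fragments the score was 80.2 to 101 at wild-type E10.5, 54.2 and 50.9 in the knockout, 36.7 and 42.1 in E12.5 pinna and 25.6 and 16.5 in E14.5 pinna, a description since the 7 were chosen for their fall. The knockout was not tested at single pairs.

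The Fgf10 contacts past the threshold were both listed in the 4 pinna libraries and in none of the other 10, and so entered the test through the pinna alone. The fragment 314 kb upstream (chr13:118397424-118402450), in intergenic sequence, scored 6.65 and 6.64 in E12.5 pinna and 8.00 and 18.5 in E14.5 pinna (asinh difference 2.89, SE 0.59, adjusted p = 0.0178). The fragment 656 kb downstream (chr13:119369723-119370399), which overlaps exonic sequence of Nnt, scored 5.38 and 5.51 in E12.5 pinna and 11.4 and 9.07 in E14.5 pinna (2.70, SE 0.58, adjusted p = 0.0204). The score at E12.5 was close to the floor of 5, so an E10.5 score just below it cannot be told apart from none. Fragments close to both were listed with the same bait at E10.5. The one 310 kb upstream scored 5.07 to 7.58 in FNP replicate 1, both Mx and both Md libraries, and 5.14 in knockout replicate 1. The one 651 kb downstream scored 7.33, 8.02 and 6.30 in replicate 2 of FNP, Mx and Md.

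For Fgfr1 the contact past the threshold, which also entered through the pinna alone, joined the upstream start to an intergenic fragment 119 kb away (chr8:25394210-25395066). It scored 8.03 and 5.24 in E12.5 pinna and 6.42 and 8.28 in E14.5 pinna, and was listed in no E10.5 library (asinh difference 2.63, SE 0.57, adjusted p = 0.0212). The 2 Fgf10 contacts and this one did not pass when pairs listed in a single library were added to the test (adjusted p = 0.0781, 0.125 and 0.147), and with equal numbers of top pairs per library the Nnt and the Fgfr1 contact both had 0.108. The contact of the Ctbp2 bait with the Edrf1 start fragment was lower in the pinna (asinh difference -2.56, limma adjusted p = 0.00887). It scored 8.26 to 19.2 in wild-type E10.5 libraries and 17.2 and 13.99 in the knockout. Of the pinna libraries only E12.5 replicate 1 listed it, at 8.71. The leading fragments on either side of it, 512 and 518 kb away, were listed in all 14 libraries. Their pinna scores were 5.06 to 12.95 and 5.11 to 10.15, against 8.13 to 20.07 and 8.92 to 13.68 in wild-type E10.5 libraries.

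**Figure D4:**
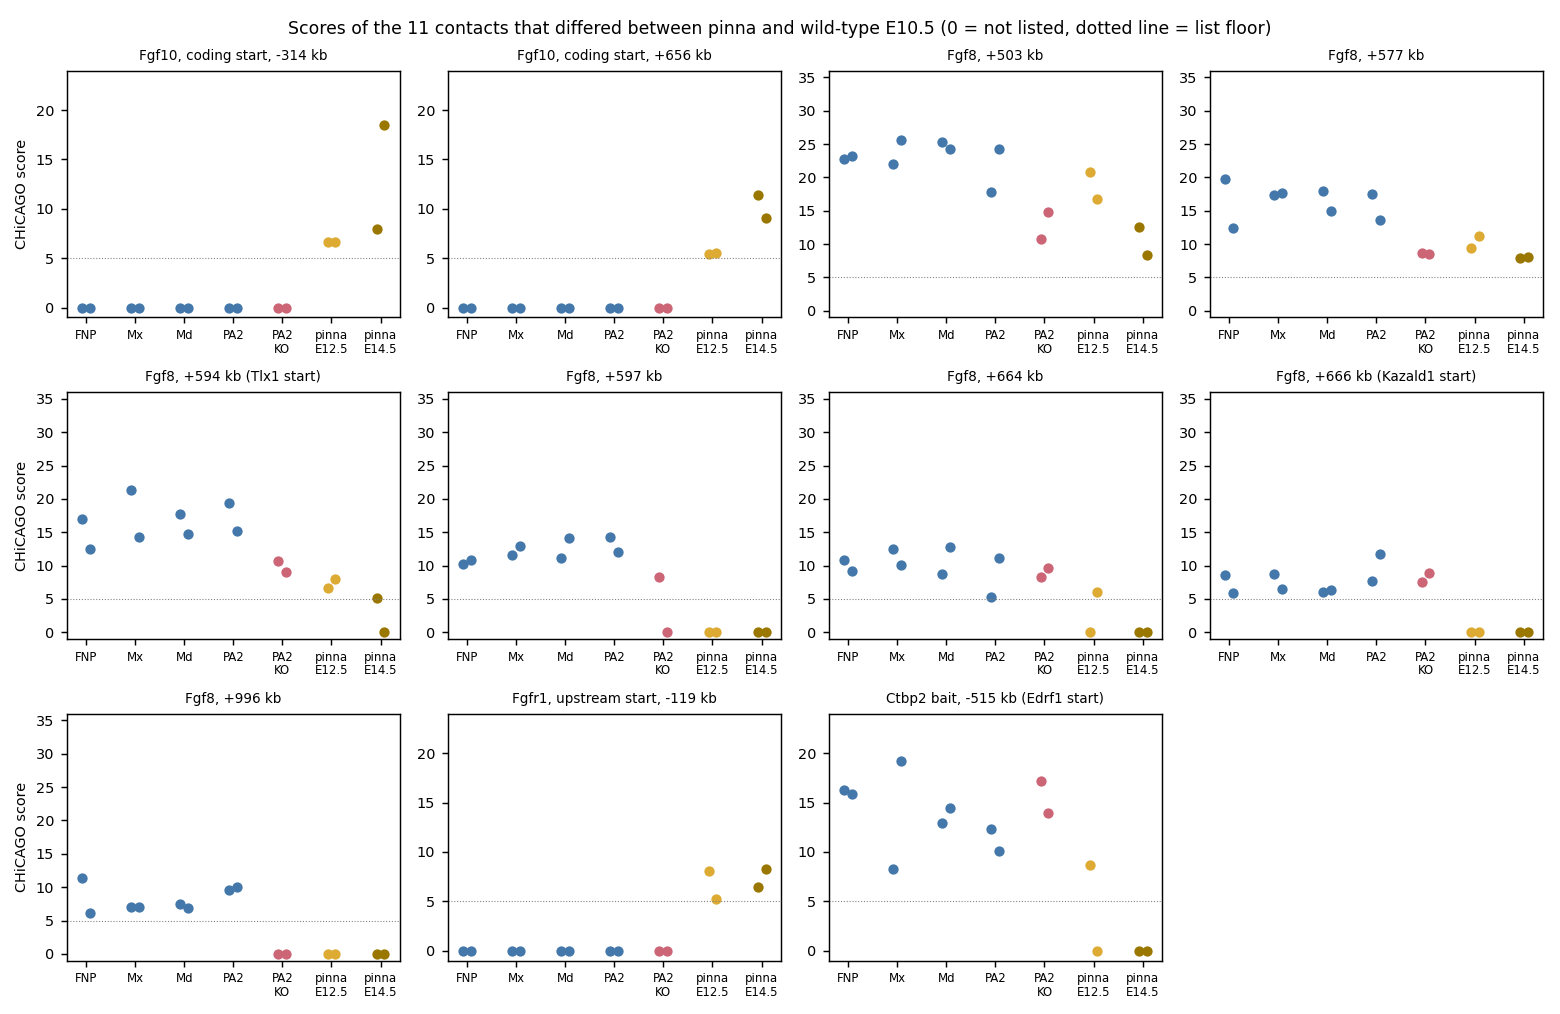
CHiCAGO scores in all 14 libraries of the 11 member contacts that differed between pinna and wild-type E10.5. Points are libraries (blue, wild-type E10.5; red, knockout; yellow and brown, pinna), 0 means not listed and the dotted line marks the list floor of 5; the 3 contacts higher in the pinna are at 0 in all 10 libraries of E10.5, knockout included.

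No contact of the feedback genes passed. The pair with the greatest difference was 508 kb downstream for Spry1 (asinh difference 1.91, adjusted p = 0.117), 304 kb downstream for Spry2 at the start of 9330188P03Rik (2.22, adjusted p = 0.117) and 354 kb downstream for Dusp6 in the lincRNA Gm20110 (-2.05, adjusted p = 0.228). For Fgf18 it was 407 kb downstream in Fbxw11 (-2.33, SE 0.65, not passing), for Fgf3 the Ano1 fragment (-1.24, adjusted p = 0.473), for the main Fgfr1 start a fragment 216 kb upstream in the lincRNA 5430421F17Rik (2.22, adjusted p = 0.148) and for the upstream Fgf10 start one 709 kb downstream in an intron of Nnt (1.25, adjusted p = 0.270). Fgfr3 had no pair listed often enough to test.

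The second comparison of contacts set the 6 wild-type PA2 and pinna libraries against the 6 FNP, Mx and Md libraries, and it shares its libraries with the first. Here 0 of 374 member pairs passed where 0.087% of all pairs did, 0.0277% higher and 0.0593% lower (limma, 40 member pairs at an unadjusted p under 0.05). Among the greatest differences of each bait, those over 2 in size were -2.23 for Fgf18 in Fbxw11 (adjusted p = 0.397), 2.15 for Spry2 at 9330188P03Rik (0.443), 2.10 for the Ctbp2 bait 384 kb away (0.451) and -2.07 for the Fgf8 fragment near Tlx1 (0.246).

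Among 48 other genes of the pathway, 47 had a bait, with 51 baits in all. Over the 7 conditions 2 of the 51 passed, against 5.46% of all baits, and 0 passed in pinna against PA2. The 2 were Fgf7, a mesenchymal ligand related to Fgf10, and Spry4, a further Sprouty gene. The scaled sum of Fgf7 was 16.9 and 44.9 in FNP, 52.5 and 125 in Mx and 46.0 and 67.7 in Md. It was 99.4 and 134 in PA2, 7.63 and 35.5 in the knockout, 98.3 and 147 in E12.5 pinna and 202 and 189 in E14.5 pinna, so the knockout overlapped FNP. Fgf7 was the only bait of the list that passed in the knockout comparison, with a difference of -2.41 (SE 0.52, limma adjusted p = 0.0312, against 0.632% of all baits lower). With the libraries compared only, no bait of the series passed in that comparison. Spry4 stood at 63.9 and 90.9 in PA2, 129 and 158 in the knockout, 169 and 89.8 in E12.5 pinna and 208 and 207 in E14.5 pinna (F = 6.05, adjusted p = 0.0248), and passed no single contrast. The median difference over the 51 baits was -0.07 in the pinna and -0.19 in the knockout, beside 0.03 and 0.05 over all baits.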

How the data were processed

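The authors aligned and filtered the PCHi-C reads with HiCUP on GRCm38 (mm10), after base calling with bcl2fastq 2.17 per the labels, and scored HindIII fragment pairs with CHiCAGO in each library. The deposited value is the CHiCAGO score of each pair at or above 5. Because a score is relative to its own library's background, levels depend on depth and on the floor.

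From the lists, contacts of a bait were read from both columns of a pair, and start sites came from GENCODE vM21. Bait strength (summed same-chromosome score, scaled to the median library total, log2 with a pseudocount of 5, baits listed in at least 2 libraries) was fitted with limma 3.58.1 (lmFit and eBayes with trend) with 7 condition means over 14 libraries. Pair scores (asinh, pairs listed in at least 2 of the 12 libraries compared) were fitted with 2 side means. Calls used a Benjamini-Hochberg adjusted p below 0.05. Both fits were run on simulated data whose settings differed from the lists. Simulated baits had independent normal noise with no score floor, and planted pairs were listed in the pinna libraries only. These runs add no support to the calls. Replicates are stated to be biologically independent. In each condition the replicates shared 30.9% to 58.1% of a library's pairs, so none was a copy. The text names, for each bait, the 3 fragments with the highest mean score at 100 kb or more, every pair past the threshold or else the greatest difference, and pathway genes that passed. The members and lists were chosen with earlier results of these data known.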

Additional observations from a re-analysis of the deposited data

Results flagged for a closer look

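In the 8 wild-type E10.5 libraries the scaled summed score of the Fgfr3 bait was 5.45 in PA2 replicate 2 and 0 in the other 7. The value of 5.45 comes from 1 listed contact. Unlisted pairs were set to 0, so a lone listing always sets its library apart, and nothing is concluded from it. Groups of 4 pinna and 8 wild-type E10.5 libraries were examined for 12 baits, and chance flags about 1 in 20 such groups. That rate need not hold for a bait with mostly unlisted values, such as Fgfr3.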

How the results depend on the processing

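Counts are of baits or pairs over the whole series past an adjusted p of 0.05. Over the 7 conditions 1209 baits passed, 501 with scores of 10 or more and 490 with between-chromosome pairs, and 705 to 1619 with each library left out. For pinna against PA2 the 584 became 341 as numbers of fragments, 172 at scores of 10 or more, 232 with between-chromosome pairs and 10 with the libraries compared only, and 131 to 885 with each library left out, where the lowest values were 156 and 131 without PA2 replicate 1 or 2. With the libraries compared only, Fgf8 and the Fgf10 coding start had adjusted p of 0.156 and 0.0590. For E14.5 against E12.5 the 36 became 17, 60, 10 and 0 in the same order, and 28 to 54 with each library left out. For the knockout the 150 became 263 with no scaling, 76 with equal top pairs, 239 with the replicate block, 0 with the libraries compared only, and 51 to 223 with each library left out. PA2 against FNP, Mx and Md had 0, and 1 at scores of 10 or more, 3 with no scaling, 1 with between-chromosome pairs, 2 with the replicate block and 0 to 5 with each library left out. FNP against Mx and Md had 0, and 0 to 2 with each library left out. For pairs, pinna against E10.5 had 2721, 5133 among pairs listed in 4 libraries, 12872 with replicates averaged, and 2479 to 3933 with each library left out. Member pairs past the threshold were 11, with 8 to 20 in other settings, 14 without the 2 libraries rich in between-chromosome pairs and 17 without E12.5 replicate 1. The PA2 and pinna comparison had 245, and 6 at scores of 10 or more, 25 with scores capped at 20, 13 in 4 libraries, 1012 with all pairs, 162 with equal top pairs, 0 with replicates averaged, 45 without those 2 libraries, and 108 to 279 with each left out. Member pairs there stayed at 0 except for 3 with all pairs. The 12 baits had 201 listed fragments per library in all, 46.6 at scores of 10 or more, and 195 to 206 with each library left out. Beyond fewer samples or pairs, the causes were not tested.

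The values do not settle whether replicate numbers pair the libraries. Replicate differences of 2 conditions correlated weakly, at -0.0988 to 0.155, and over 0.1 in 2 of 21 pairs of conditions. Yet 11 of 14 libraries were closest outside their condition to one of the same number, and a shared replicate effect was not tested further. With the replicate block no member call was lost, and the upstream Fgfr1 start passed over the 7 conditions (adjusted p = 0.0307). It also passed there with no scaling (0.0268), at scores of 10 or more (0.0488), with at least 5 listed pairs (0.0382), without E12.5 replicate 1 (0.0167) or 2 (0.0106) and without both merged lists (0.0281), and the Ctbp2 bait at scores of 10 or more (0.0451). Over the 7 conditions Fgf8 did not pass as numbers of fragments (0.123), at scores of 10 or more (0.0524) or with between-chromosome pairs (0.240), nor the main Fgfr1 start at scores of 10 or more (0.116), with between-chromosome pairs (0.0983) or without the 2 libraries rich in them (0.0658), nor the Fgf10 coding start at scores of 10 or more (0.160, and 0.168 against PA2). No called member difference changed sign in any setting run. The score floor and unknown depth limit every statement that a contact was not listed.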
